A study of Mus musculus with 18 samples.

Results

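To learn what tells a histone deacetylase inhibitor from a retinoid in melanoma cells, the total RNA of B16 cells treated with sodium 4-phenylbutanoate (PB-4) was compared directly with that of B16 cells treated with all-trans retinoic acid (ATRA). B16 is an established mouse melanoma line. The comparison took the 3 PB-4 and the 3 ATRA libraries, 6 of the 9 total RNA libraries and of the 18 libraries of the series, and 46068 of 46095 rows of the gene count table. The 27 rows left out bore dates in place of gene names. The 3 control libraries came from B16 cells given neither agent and served only to show where untreated cells stand. The labels give B16 as the cell line and mouse skin as the source, and no source used here states how much of either agent those cultures received, or for how long. The study states that experiments were repeated, but neither it nor the labels say whether the sequenced replicates came from separate cultures, so the p-values measure the spread between libraries, which may be technical. Levels are given in CPM (counts per 1000000 counts of a library, after scaling). All log2 fold changes below are PB-4 minus ATRA, so a positive value means more RNA with PB-4, and are given ± SE with edgeR's adjusted p, each group having 3 libraries.

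ATRA is the natural ligand of the retinoic acid receptors, which sit on DNA as partners of the retinoid X receptors and switch on genes that include their own and those of retinoid breakdown. 4-Phenylbutanoate is a short aromatic fatty acid that inhibits class I and II histone deacetylases, so that acetylated histones accumulate and silent genes can be read. It is also known as a chemical chaperone that eases the folding of proteins in the endoplasmic reticulum. Both agents are used to push tumor cells towards differentiation.

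The promoters that bear on the genes below are shown first. They are RefSeq sequence (GRCm38.p6), read 5′ to 3′ on the strand of the gene and ending at or before the annotated start, and were matched by symbol for 13203 of the 19521 genes tested. Rarb (chr14:16575477-16575576, minus strand) and Cyp26a1 (chr19:37697708-37697807, plus strand) are shown because they carry the DR5 element, a direct repeat of the retinoid receptor half-site with 5 bases between, here in capitals. It was found on either strand in 7 of the 13203 promoters (0.053%), in 1 of 269 of the genes higher with ATRA (Rarb) and in 0 of 1452 of those higher with PB-4.
Rarb: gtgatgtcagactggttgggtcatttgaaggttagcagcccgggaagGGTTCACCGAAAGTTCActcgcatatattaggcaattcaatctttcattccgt
Cyp26a1: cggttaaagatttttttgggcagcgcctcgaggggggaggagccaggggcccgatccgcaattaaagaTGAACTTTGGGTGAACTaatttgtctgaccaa
Asns (chr6:7693210-7693309, minus strand), Slc7a11 (chr3:50443614-50443713, minus strand) and Chac1 (chr2:119351029-119351128, plus strand) are shown for the C/EBP-ATF response element TTGCATCA or TTTCATCA, in capitals on either strand, because some targets of ATF4 were higher with ATRA, although Slc7a11 itself was not called.
Asns: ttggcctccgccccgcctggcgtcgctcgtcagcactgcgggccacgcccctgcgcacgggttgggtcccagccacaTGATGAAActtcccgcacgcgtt
Slc7a11: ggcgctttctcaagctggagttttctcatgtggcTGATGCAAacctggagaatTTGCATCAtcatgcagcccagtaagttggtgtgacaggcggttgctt
Chac1: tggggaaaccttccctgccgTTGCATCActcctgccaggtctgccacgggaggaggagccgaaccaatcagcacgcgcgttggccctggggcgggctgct
Hspa5 (chr2:34771990-34772089, plus strand) is shown for the endoplasmic reticulum stress element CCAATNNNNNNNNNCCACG, in capitals.
Hspa5: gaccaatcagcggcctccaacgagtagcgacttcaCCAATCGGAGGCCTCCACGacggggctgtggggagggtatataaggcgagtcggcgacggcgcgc
The last 2 motifs were searched after the values of these genes had been seen. The C/EBP-ATF element was found in 1.40% of the promoters of all genes tested, 1.38% of those higher with PB-4, 5.58% of those higher with ATRA and 4 of 14 ATF4 targets. The stress element was found in 0.182% of all and in 7 of 17 endoplasmic reticulum chaperones. It stood in 3 of 1452 promoters of genes higher with PB-4 (0.207%) and 2 of 269 of those higher with ATRA (0.743%). The GC box GGGCGG, on either strand, stood in 61.7% of all, 62.6% of those higher with PB-4 and 64.7% of those higher with ATRA. A match is a description of these letters and not a site shown to be bound. Asns is shown for its letters only, and its level and call are not given here.

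In all, 2006 of 19521 genes were higher with PB-4 (10.3%) and 378 were higher with ATRA (1.94%) by edgeR's quasi-likelihood test at an adjusted p under 0.05. Of these, 1912 and 246 differed by at least 2-fold. In such bulk libraries fewer cells of a type and less RNA per cell cannot be told apart. All genes tested had a median log2 fold change of 0.04. Without an adjustment, 3819 and 1527 genes had a p under 0.05. With the replicate number as a block the counts were 3653 (18.7%) and 2168 (11.1%), and in replicates 1 and 2 alone they were 3984 (21.1%) and 3147 (16.6%) of 18906 genes. The block kept 2362 of the 2384 calls and called none in the opposite direction. Counts of every gene list below are to be read beside these shares of all genes. Single libraries weighed on these counts. The count higher with PB-4 was 1096 without ATRA replicate 1, 1275 without ATRA replicate 2 and 1171 without PB-4 replicate 2, and that higher with ATRA was 98, 137 and 93, as well as 147 without PB-4 replicate 1 and 773 without PB-4 replicate 3.

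Replicate 3 of each group stood apart. The first principal component of the 6 libraries (64.7% of the variance) separated PB-4 from ATRA and the second (26.2%) separated replicate 3 from replicates 1 and 2. Depth was 12632669 to 36176443 counts over the 6 libraries, and replicate 3 was the shallowest of each group. In replicate 3 the median replication-dependent histone gene was higher than the mean of replicates 1 and 2 by 2.68 (log2) with ATRA and 2.34 with PB-4, and Malat1, a nuclear RNA, was different by -1.36 and -1.11. The part of this difference in the results was not tested, beyond the counts given without replicate 3 and with the block.

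**Figure D1:**
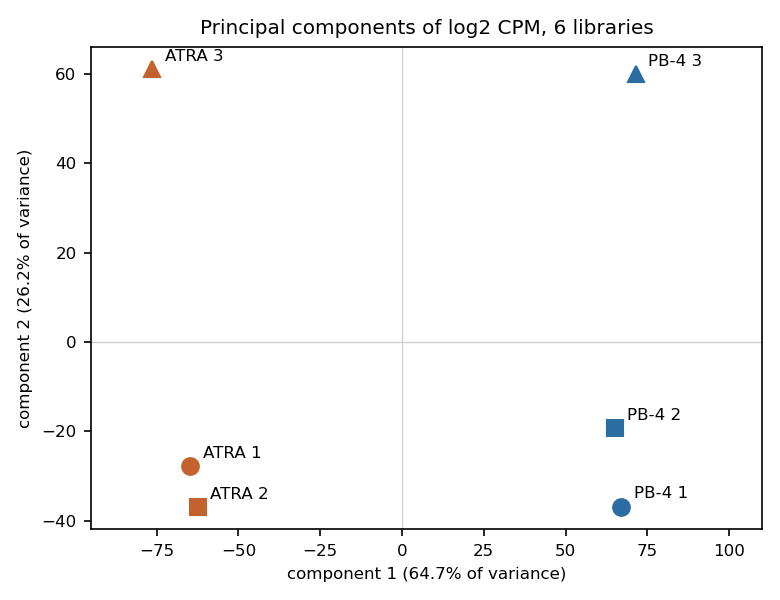
Principal components 1 and 2 of log2 CPM in the 6 libraries, with the share of variance on each axis and 1 symbol per library. Component 1 (64.7%) sets PB-4 (blue) apart from ATRA (orange), and component 2 (26.2%) sets replicate 3 of both groups apart from replicates 1 and 2.

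For most genes higher with PB-4, untreated cells stood with ATRA. Among the 2006 genes higher with PB-4, the control level was nearer to that of ATRA in 1764 (87.9%), and the median gene stood 2.64 (log2) above control with PB-4 and -0.09 from control with ATRA. Of the 378 genes higher with ATRA, the control level was nearer to ATRA in 228 (60.3%) and nearer to PB-4 in 150, with a median of -0.74 from control with PB-4 and 0.42 with ATRA. The control libraries did not enter the choice of these genes, and no test was made of their position. The share and medians include genes that entered the test only through their counts with PB-4. Of all genes tested, 803 had no count with ATRA and 46 had none with PB-4, and the log2 values of such genes depend on the prior count.

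Known response genes of ATRA were among those most different from PB-4. Dhrs3, a reductase that turns retinal back to retinol, was at 429.5, 384 and 459 CPM in the 3 ATRA libraries and at 15.9, 9.89 and 9.29 with PB-4, against 4.22, 4.59 and 1.85 in control. The groups did not overlap (log2 fold change -5.16 ± 0.30, adjusted p = 1.15e-04). Rarb, the retinoic acid receptor whose promoter is shown above, was at 192, 177 and 114 CPM with ATRA and 17.9, 9.04 and 2.17 with PB-4, and control stood at 7.12, 8.36 and 1.40. Every ATRA library was far above every PB-4 library (-4.04 ± 0.63, adjusted p = 0.00428). Cyp26b1, which breaks down retinoic acid, was at 65.8, 72.5 and 80.3 CPM with ATRA and 13.6, 17 and 25.1 with PB-4 (-1.94 ± 0.28, adjusted p = 0.00313). Control replicate 3, at 77.6 CPM, reached the ATRA level of this gene, whereas control replicates 1 and 2 were at 21.1 and 16.9.

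Lif, a cytokine of the interleukin-6 family, was at 73.5, 89.6 and 53 CPM with ATRA and 1.61, 1.45 and 2.70 with PB-4, against 0.188, 0.602 and 0.255 in control (-5.24 ± 0.38, adjusted p = 3.2e-04). Lgr6, a receptor for the Wnt-enhancing R-spondins, had the largest difference towards ATRA among called genes of at least 5 CPM, at 18.2, 18.0 and 65.7 CPM against 0.0803, 0.0259 and 0.461 (-7.80 ± 0.93, adjusted p = 0.00126). Both genes were separated in all libraries. Nr2f2, an orphan nuclear receptor known to respond to retinoic acid, was at 181, 171 and 181 CPM with ATRA, 55.0, 53.1 and 57.2 with PB-4 and 107, 109.6 and 98.7 in control, so that control stood between the agents (-1.66 ± 0.20, adjusted p = 0.00115). Tgm2, a transglutaminase known as a retinoid target, was far above control with both agents and was not called between them. It was at 100, 112 and 98.3 CPM with ATRA, 48.5, 67.5 and 127 with PB-4 and 1.13, 2.22 and 5.23 in control (-0.32 ± 0.35, adjusted p = 0.623), and passed the test without PB-4 replicate 3 (adjusted p = 0.0378). Cyp26a1, which carries a DR5 element, was at 0.131, 0.276 and 0 CPM with ATRA and 0.281, 0.0518 and 0.0659 with PB-4 and gave no call (-0.19 ± 1.15, adjusted p = 0.944).

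Other retinoid genes were higher with PB-4. Aldh1a3, which makes retinoic acid from retinal, was at 0.523, 1.16 and 1.02 CPM with ATRA, 8.55, 9.40 and 10.9 with PB-4 and 2.67, 3.90 and 3.89 in control (3.44 ± 0.43, adjusted p = 0.00151). Zfp703, a transcriptional repressor, was at 23.6, 27.2 and 26.1 CPM with ATRA and 155, 205 and 223 with PB-4 (2.95 ± 0.24, adjusted p = 3.22e-04). In both genes control stood between the 2 agents. Of 13 tested genes of retinoic acid metabolism and binding (17 listed), 2 were higher with PB-4 (Aldh1a3 and Stra6, the retinol carrier) and 2 with ATRA (Dhrs3 and Cyp26b1), where 10.3% and 1.94% of all genes were. With the block 5 were higher with PB-4, and without ATRA replicate 3 the number was 3. Stra6 rested on 3 counts in the ATRA group and 164 with PB-4, a pooled ratio of 54.5 (18.3 to 267, exact 95% interval for counting error only), and its call was lost without any 1 of 4 libraries (adjusted p = 0.125 without ATRA replicate 1, 0.0980 without ATRA replicate 2, 0.0556 without PB-4 replicate 1 and 0.0847 without PB-4 replicate 3). Of 11 tested receptors and cofactors only Rarb was called (2 others were higher with PB-4 under the block), while Rara (-0.34 ± 0.31) and Rarg (-0.43 ± 0.25) were not. Of 23 tested other targets 5 were higher with PB-4 and 2 with ATRA (Lif and Nr2f2), and with the block 8 and 4. The count of 5 was 3 without ATRA replicate 1 or ATRA replicate 2. Of 22 tested Hox genes 4 were higher with PB-4 and 1 with ATRA (5 and 5 with the block). The Hox counts were 0 and 0 without ATRA replicate 1 or PB-4 replicate 2, 1 and 0 without ATRA replicate 2, 2 and 1 without PB-4 replicate 1, 4 and 2 without ATRA replicate 3 and 2 and 2 without PB-4 replicate 3. Hoxa11, at 8.17, 7.52 and 6.38 CPM with ATRA and 1.36, 1.99 and 2.50 with PB-4, was the Hox gene higher with ATRA (-1.90 ± 0.39, adjusted p = 0.0140), with an adjusted p of 0.0686 without ATRA replicate 1, 0.0534 without ATRA replicate 2 and 0.0651 without PB-4 replicate 2.

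**Figure D2:**
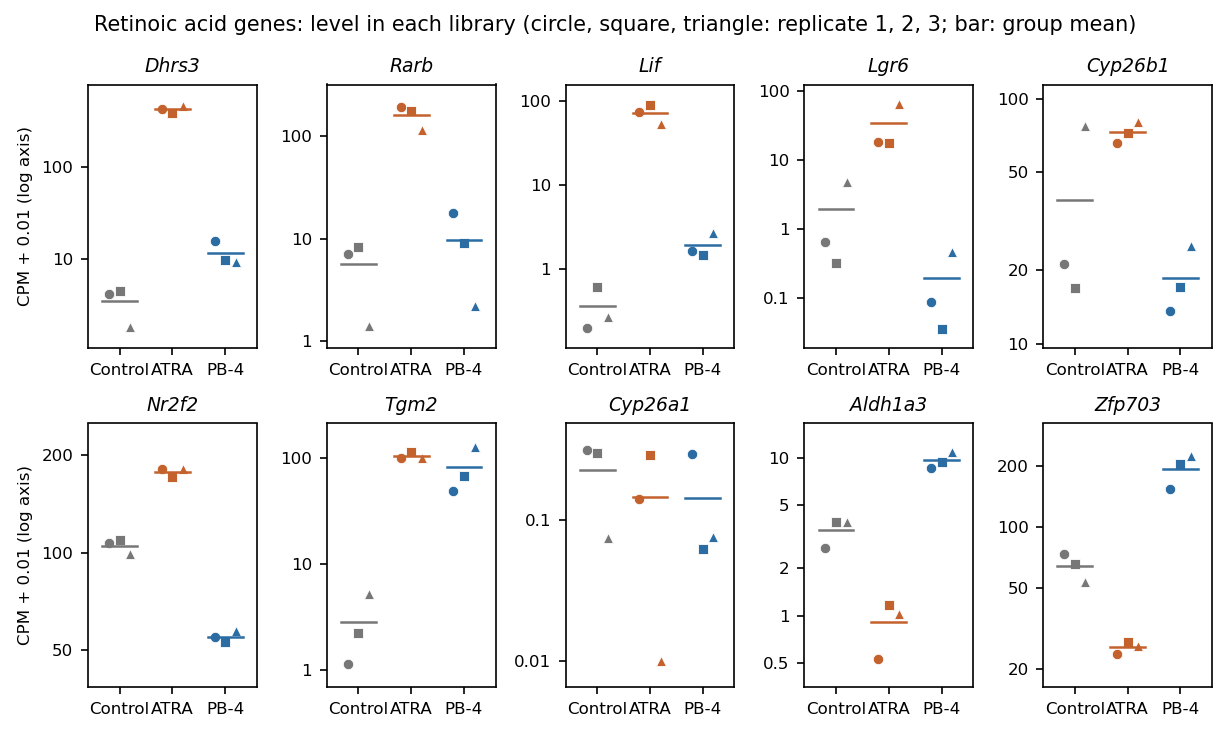
CPM plus 0.01 on a log axis for 10 genes, which are retinoic acid genes and Lgr6 (in no retinoid list), in each of the 9 total RNA libraries, with control in grey, ATRA in orange and PB-4 in blue, 1 symbol per replicate and a bar at the group mean. Dhrs3, Rarb, Lif, Lgr6, Cyp26b1 and Nr2f2 are higher with ATRA, Aldh1a3 and Zfp703 are higher with PB-4, and the 2 groups overlap in Tgm2 and Cyp26a1.

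Several genes known to respond to deacetylase inhibitors were higher with PB-4. Of 26 tested members of that list, 7 were higher with PB-4 and 0 with ATRA, with a median log2 fold change of 0.79, and with the block 18 and 0. Without ATRA replicate 1 the count was 2, whereas it was 5 or 7 without any other library. Clu, which encodes the secreted chaperone clusterin, was at 56.1, 70.1 and 142 CPM with PB-4 and 2.06, 2.46 and 5.53 with ATRA (4.84 ± 0.52, adjusted p = 8.6e-04), and control, at 2.03, 2.44 and 4.40, lay with ATRA. Hspa2, a testis-enriched HSP70 relative, was at 30.9, 39.2 and 34.3 CPM against 9.67, 8.10 and 11.8 (1.85 ± 0.25, adjusted p = 0.00196). Tubb3, the neuronal class of beta-tubulin, was at 97.9, 112 and 189.6 CPM against 29.9, 26.0 and 56.5 (1.88 ± 0.37, adjusted p = 0.0116), and missed the threshold without ATRA replicate 1 (adjusted p = 0.0611). Klf6, a zinc finger factor, was at 207, 219.8 and 102 CPM with PB-4 and 54.6, 64.8 and 64.7 with ATRA (1.54 ± 0.29, adjusted p = 0.00983), yet control was at 227, 229 and 182, so that the control level lay on the side of PB-4. Its adjusted p was 0.0574 without ATRA replicate 1 and 0.0531 without PB-4 replicate 2. H1f0, the linker histone of resting cells, was at 134, 147 and 346 CPM against 111, 88.1 and 162 and was not called (0.85 ± 0.40, adjusted p = 0.216), but passed with the block (adjusted p = 0.00285). Cdkn1a, the p21 inhibitor of cyclin-dependent kinases, showed the same, at 160.4, 177 and 270.5 CPM against 108, 101 and 192 (0.65 ± 0.32, adjusted p = 0.229, and 0.00234 with the block).

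Among the 11 deacetylase genes themselves, Hdac9 was the only 1 called (3 with the block), at 8.23, 9.69 and 8.89 CPM with PB-4, 0.751, 1.66 and 0.170 with ATRA and 2.07, 1.36 and 1.85 in control (3.28 ± 0.63, adjusted p = 0.01, and 0.0520 without ATRA replicate 1). Hdac1 differed by 0.30 ± 0.20 and Hdac2 by 0.02 ± 0.30, neither past the threshold. Of 28 tested genes of fatty acid oxidation and PPAR targets, 4 were higher with PB-4 and 2 with ATRA (9 and 4 with the block, 1 and 0 without ATRA replicate 1, 2 and 0 without ATRA replicate 2, 3 and 0 without PB-4 replicate 1 or PB-4 replicate 2, and 4 and 1 without PB-4 replicate 3). Among all genes 10.3% and 1.94% were called, and 18.7% and 11.1% with the block. Cd36, a carrier of long-chain fatty acids, was at 19.9, 16.9 and 3.23 CPM with PB-4 against 0.523, 1.05 and 0 with ATRA and 0.490, 0.253 and 0.0638 in control (4.48 ± 0.92, adjusted p = 0.0141, and 0.0644 without ATRA replicate 1).

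Some genes higher with PB-4 were silent with ATRA. The 12 with the largest fitted fold among those of at least 5 CPM with PB-4 had no count in any ATRA library. Because a fitted fold against 0 depends on the prior count, a lower bound is given for each, taken against a floor of 3 counts over the 3 libraries, and these genes are not shown to differ more than genes with counts in both groups. Slc1a2, the glial glutamate carrier, was at 13.1, 11.1 and 7.38 CPM with PB-4, at least 288-fold higher (adjusted p = 6.04e-04), and Col26a1, a collagen, at 7.11, 6.73 and 23.1, at least 262-fold. Pvalb, the calcium buffer of fast neurons and muscle, reached 9.44, 6.11 and 11.7 CPM, at least 216-fold. Sox8, a neural crest factor close to Sox10, reached 3.65, 3.42 and 9.48 CPM (at least 122-fold), and Kcnt1, a sodium-activated potassium channel, 4.78, 3.03 and 8.43 (at least 121-fold). They also included Btbd17, Scara5, Pde9a, 3632451O06Rik, Gm32585 and Gpr20, each at least 107-fold to 232-fold higher. All 12 kept their call whichever library was left out. They had entered the test only through PB-4 and held no ATRA count, so this is no independent support.

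Genes of excitable cells were among those higher with PB-4. Of 28 tested voltage-gated channel genes (38 listed), 16 were higher with PB-4 and 0 with ATRA, with a median log2 fold change of 3.54 (2.6 when the 7 genes at 0 in a group are set at their bound). With the block 20 were higher. In 13 of the 28, only the PB-4 libraries lifted the gene over the filter on low counts. These entered the test through the group where they were high, so their direction is no independent support. They stay in the counts and the medians of the lists. Pcsk2, Col6a1, Lamb3, Notum and Ngfr, described below, also passed the filter only through PB-4. Members of this kind were 4 of 23 neuronal genes, 2 of 7 fibroblast, 3 of 6 immune and 1 of 1 keratinocyte markers, are given with the other lists where they were 6 or more, and numbered 0 to 3 elsewhere. Cacna1g, a T-type calcium channel, was at 71.0, 64.0 and 182 CPM with PB-4, 0.131, 0.194 and 0 with ATRA and 0, 0 and 0.383 in control (9.59 ± 0.72, adjusted p = 3.2e-04). Cacnb3, a channel subunit, was at 92.7, 115 and 202 CPM against 14.1, 14.2 and 11.9 (3.38 ± 0.35, adjusted p = 7.67e-04). It was present with ATRA as well, near control. Of 23 tested genes of the neuronal vesicle and cytoskeleton (36 listed), 12 were higher with PB-4 and 0 with ATRA (median 1.13), though 7 without ATRA replicate 1 and 7 without PB-4 replicate 2. Syp, the vesicle protein synaptophysin, was at 28.6, 25.8 and 49.8 CPM against 4.44, 3.48 and 1.62 (3.44 ± 0.45, adjusted p = 0.00186), and Map2, of the dendrite, at 233, 170.4 and 154 against 40.7, 44.2 and 16.5 (2.46 ± 0.39, adjusted p = 0.00428). Map2 stood in control at 121, 101 and 51.6, between both agents. Syn1, which ties vesicles to actin, was at 7.27, 7.51 and 10.7 CPM against 0.0980, 0.332 and 0 (5.59 ± 0.71, adjusted p = 0.00166). Of 8 tested neuroendocrine genes (22 listed) 1 was called (3 with the block), and 6 of the 8 passed the filter only through PB-4. The gene called was Pcsk2, a prohormone convertase, at 2.49, 2.72 and 0.658 CPM against 0.0327, 0.0553 and 0.0851 (5.12 ± 0.79, adjusted p = 0.00408).

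Some extracellular matrix genes were higher with PB-4 as well. Of 37 tested collagen genes, 17 were higher with PB-4 and 0 with ATRA (23 and 2 with the block), with a median of 2.42, or 2.32 with 3 genes at their bound. Of the 37, 8 passed the filter only through PB-4, and the direction of these 8 is no independent support. Col6a1 was at 15.7, 17.9 and 49.6 CPM with PB-4 against 0.131, 0.0276 and 0.170 with ATRA (8.19 ± 0.77, adjusted p = 5.99e-04), and Col6a3, of the same microfibril, at 35.2, 37.7 and 24.7 against 0.131, 0.498 and 0 (6.96 ± 0.66, adjusted p = 6.04e-04). Col1a1, of the main fibril of connective tissue, reached 242, 285 and 1214 CPM with PB-4 against 4.80, 4.17 and 1.02 with ATRA (7.43 ± 0.90, adjusted p = 0.00132), and PB-4 replicate 3 was far above the others. With the block it missed the threshold (adjusted p = 0.0865). Of 38 tested matrix glycoproteins and proteases, 15 were higher with PB-4 and 3 with ATRA, with a median of 1.47, and 8 had passed the filter only through PB-4. Those higher with ATRA were 1 without ATRA replicate 1, ATRA replicate 2 or PB-4 replicate 1, and 0 without PB-4 replicate 2. Postn, periostin, was at 40.1, 33.8 and 42.1 CPM against 1.5, 3.81 and 3.32 (3.78 ± 0.38, adjusted p = 7.59e-04), and Lamb3, a chain of an epithelial laminin, at 3.57, 5.57 and 4.54 against 0.0980, 0.0276 and 0 (6.40 ± 0.69, adjusted p = 8.6e-04). Timp3, an inhibitor of matrix proteases, went the opposite way at 203, 199.8 and 128 CPM with PB-4 and 864, 883 and 248 with ATRA (-1.91 ± 0.46, adjusted p = 0.0286). Control, at 76.2, 89.5 and 88.3, was below both agents. The call of Timp3 was lost without ATRA replicate 1 (0.1), ATRA replicate 2 (0.0761) or any PB-4 library (0.0677, 0.0783 and 0.0592).

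Of 21 tested integrin genes 8 were higher with PB-4 and 0 with ATRA (median 0.95), 16 and 1 with the block, and 5 without ATRA replicate 1 or PB-4 replicate 2. Itga8 was at 20.1, 13.1 and 9.48 CPM against 0.196, 0.332 and 0.0851 (5.94 ± 0.54, adjusted p = 4.99e-04), and Itgb3, of the vitronectin receptor, at 168, 167 and 141 against 72.6, 57.3 and 39.4 (1.51 ± 0.27, adjusted p = 0.00727). Of 17 tested annexin, S100 and Ahnak genes 7 were higher with PB-4 and 1 with ATRA (median 0.93, and 11 and 1 with the block). S100a6 was at 30.6, 39.4 and 111 CPM with PB-4, 0.229, 0.0553 and 0.170 with ATRA and 0.640, 1.24 and 1.02 in control (8.71 ± 0.77, adjusted p = 4.35e-04). Anxa2, which links membranes to actin, was at 195, 246 and 304 CPM against 64.3, 58.2 and 51.9 (2.12 ± 0.25, adjusted p = 0.00125), but control was at 284, 284 and 433, on the side of PB-4. The 1 higher with ATRA was Anxa5, at 279, 260.4 and 298 CPM against 159.8, 176 and 136 (-0.80 ± 0.20, adjusted p = 0.0318), which lost its call without ATRA replicate 1 (0.136), ATRA replicate 2 (0.0983), PB-4 replicate 1 (0.0854) or PB-4 replicate 2 (0.0961).

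Some receptors and their feedback genes differed as well. Of 17 tested receptor tyrosine kinases and neurotrophin receptors of melanoma, 10 were higher with PB-4 and 1 with ATRA (12 and 2 with the block), with a median of 2.03. Ngfr, the neurotrophin receptor that marks neural crest cells and dedifferentiated melanoma, had the smallest adjusted p among all members of the lists. With 5 counts over the ATRA libraries and 4047 with PB-4, it passed the filter only through PB-4, so its direction and rank are no independent support. It was at 47.0, 50.9 and 59.9 CPM with PB-4, 0.0653, 0.0553 and 0.0851 with ATRA and 0.113, 0.887 and 0.766 in control (9.59 ± 0.38, adjusted p = 1.6e-05). Axl was at 117, 128 and 152 CPM against 38.0, 31.4 and 23.1 (2.12 ± 0.27, adjusted p = 0.00151), Fgfr1 at 40.8, 41.6 and 70.3 against 4.51, 4.15 and 10.6 (3.06 ± 0.43, adjusted p = 0.00251) and Pdgfra, also counted among retinoic acid targets and fibroblast markers, at 93.1, 87.7 and 64.9 against 5.88, 4.45 and 1.96 (4.30 ± 0.41, adjusted p = 6.04e-04). In these 3 the control libraries were nearer to ATRA. Ddr2, a collagen receptor, was the 1 higher with ATRA, at 539, 698 and 290.1 CPM against 248, 227 and 159.8 (-1.26 ± 0.34, adjusted p = 0.0452). It was lost without any library but ATRA replicate 3 (adjusted p from 0.0698 without PB-4 replicate 3 to 0.148 without ATRA replicate 2).

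Of 20 tested Wnt and beta-catenin feedback genes, 10 were higher with PB-4 and 1, Lgr6, with ATRA (median 1.74, and 11 and 2 with the block), and 6 of the 20 had passed the filter only through PB-4. Without ATRA replicate 1 or ATRA replicate 2 the first count was 6, and without PB-4 replicate 2 it was 5. Notum, a secreted enzyme that inactivates Wnt proteins, was at 3.77, 6.73 and 7.38 CPM against 0.0327, 0.0829 and 0 (6.81 ± 0.69, adjusted p = 7.59e-04), and Lgr4, a receptor for R-spondins like Lgr6, at 212, 215 and 204 against 52.8, 57.0 and 61.5 (1.91 ± 0.20, adjusted p = 7.59e-04). Control, at 115, 117 and 119, stood between the agents in Lgr4. Ctnnb1, which encodes beta-catenin, was at 737, 716 and 579.7 CPM with PB-4 and 994, 961 and 1057 with ATRA (-0.54 ± 0.21, adjusted p = 0.125), and passed with the block (0.0109). Wnt1 had counts only with PB-4, at 0.361, 0.0259 and 0.856 CPM (at least 7.65-fold, adjusted p = 0.0890), and passed with the block (0.0299). Of 26 tested genes of MAP kinase feedback and AP-1, 4 were higher with PB-4 and 1 with ATRA, and 10 and 2 with the block. Among all genes 10.3% and 1.94% were called, and 18.7% and 11.1% with the block. The count of 4 was 2 without ATRA replicate 1. Jun was at 222, 251 and 211 CPM with PB-4, 53.1, 48.8 and 54.9 with ATRA and 154, 130.2 and 114 in control (2.15 ± 0.20, adjusted p = 5.52e-04), so that control lay between. Dusp4, a phosphatase that ends ERK signals, was at 18.3, 20.6 and 16.1 CPM against 48.3, 47.1 and 72.3 with ATRA (-1.58 ± 0.24, adjusted p = 0.00392).

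Lif was higher with ATRA, and its receptor was higher with PB-4. Lifr was at 92.5, 95.6 and 77.6 CPM with PB-4, 14.1, 21.3 and 15.8 with ATRA and 27.3, 27.6 and 31.3 in control (2.39 ± 0.25, adjusted p = 7.93e-04). Of 18 tested genes of LIF and interleukin-6 family signaling 3 were higher with PB-4 and 1 with ATRA (4 and 2 with the block, and 2 higher with ATRA without PB-4 replicate 3). Of 28 tested interferon response genes 4 were higher with PB-4 and 1 with ATRA (10 and 3 with the block, and 2 higher with PB-4 without ATRA replicate 1, ATRA replicate 2, PB-4 replicate 1 or PB-4 replicate 2, and 4 higher with ATRA without ATRA replicate 3). Among all genes 10.3% and 1.94% were called (18.7% and 11.1% with the block). Without the block, the counts of both lists higher with PB-4 were not far from the 10.3%. With the block, the 10 of 28 interferon genes higher with PB-4 were above the 18.7% of all genes. The single interferon gene higher with ATRA was Cxcl10, a chemokine, at 19.4, 33.1 and 30.8 CPM against 2.73, 2.41 and 3.88 (-3.19 ± 0.35, adjusted p = 8.95e-04), and Oas1a was at 8.55, 7.98 and 18.8 CPM with PB-4 against 0.817, 1.19 and 0.255 (3.89 ± 0.61, adjusted p = 0.00415). Among 11 tested genes of MHC class I antigen presentation 4 were higher with PB-4 and 2 with ATRA. The former count was 1 without ATRA replicate 1 or PB-4 replicate 2 and 2 without PB-4 replicate 1, and the latter was 1 without ATRA replicate 1, ATRA replicate 2 or any PB-4 library. H2-T22 was at 69.9, 77.0 and 82.5 CPM against 39.0, 32.1 and 33.8 (1.15 ± 0.21, adjusted p = 0.00827), whereas Psmb10, an immunoproteasome subunit, was at 17.6, 14.8 and 16 CPM with ATRA against 2.77, 3.75 and 4.74 (-2.08 ± 0.33, adjusted p = 0.00415).

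**Figure D3:**
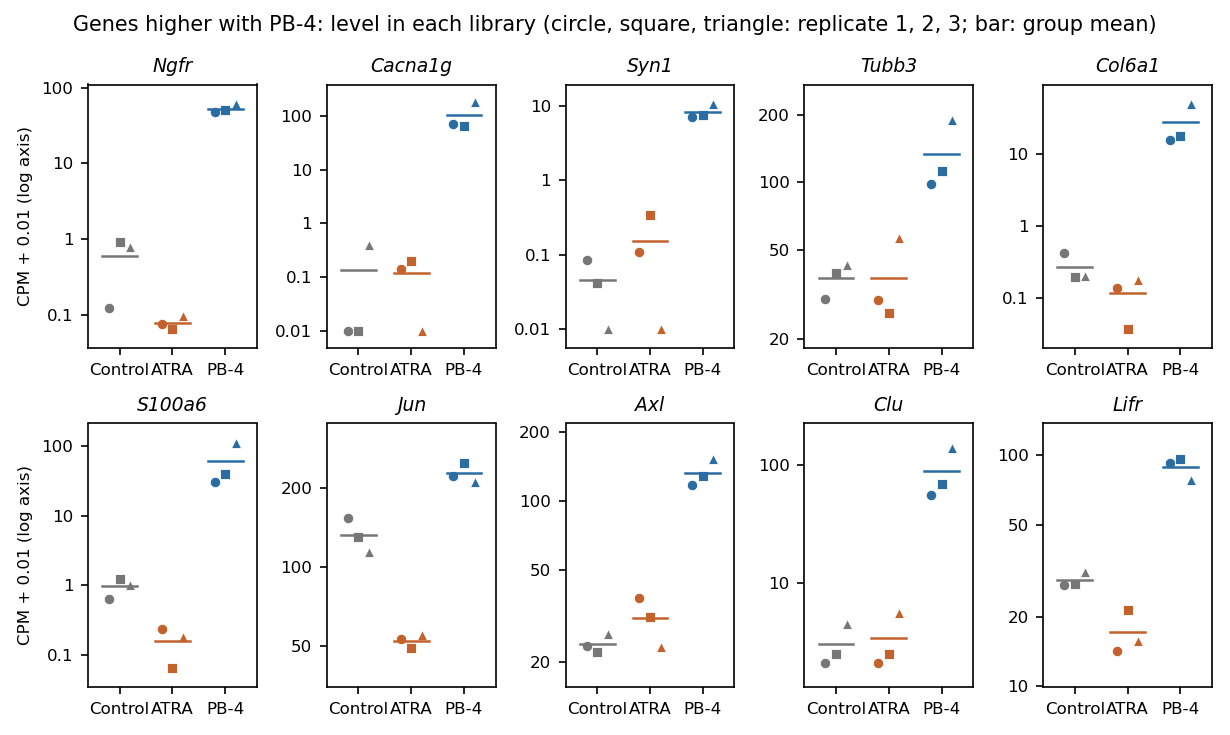
CPM plus 0.01 on a log axis for 10 genes higher with PB-4 in each of the 9 total RNA libraries, with control in grey, ATRA in orange and PB-4 in blue, 1 symbol per replicate and a bar at the group mean. The 3 PB-4 libraries are above the 3 ATRA libraries in all 10, and control lies between the 2 agents in Jun and near ATRA in Tubb3 and Clu.

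Many genes of the amino acid stress response were higher with ATRA. ATF4 is a transcription factor made when translation is slowed by stress, and it turns on genes of amino acid uptake and synthesis. Of 15 tested ATF4 targets, 8 were higher with ATRA and 0 with PB-4, with a median log2 fold change of -1.37. Trib3, a pseudokinase induced by CHOP, was at 428, 444 and 53.2 CPM with ATRA, 16.6, 16.4 and 23.2 with PB-4 and 32.0, 18.9 and 24.3 in control (-4.04 ± 0.71, adjusted p = 0.00702). Ddit3, which encodes CHOP, was at 293, 274 and 63.5 CPM with ATRA against 20.6, 20.2 and 22 (-3.32 ± 0.53, adjusted p = 0.00451), and Chac1, which degrades glutathione, at 64.6, 53.3 and 30.7 against 5.86, 6.09 and 13.1 (-2.55 ± 0.43, adjusted p = 0.00585). In these genes the groups did not overlap, but ATRA replicate 3 was far below ATRA replicates 1 and 2. With the block the adjusted p was 0.204 for Trib3, 0.121 for Ddit3 and 0.0662 for Chac1. The median ATF4 target in ATRA replicate 3 was -1.08 (log2) from the mean of replicates 1 and 2, against 0.38 in control and 0.46 with PB-4.

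Mthfd2 and Atf4 were called both with and without the block. Mthfd2, a mitochondrial folate enzyme, was at 397, 342 and 159.6 CPM with ATRA, 50.5, 58.7 and 41.8 with PB-4 and 117, 121 and 170.5 in control (-2.56 ± 0.36, adjusted p = 0.00256, and 2.49e-08 with the block). Atf4 itself was at 722, 697 and 334 CPM against 130.0, 148 and 173 (-1.94 ± 0.34, adjusted p = 0.00658), with control at 281, 272 and 337. Slc7a11, the cystine carrier whose promoter is shown above, was at 157, 327 and 12.8 CPM with ATRA and 20.4, 37.4 and 8.30 with PB-4, and its groups overlapped through ATRA replicate 3 (-2.92 ± 0.95, adjusted p = 0.0818). Atf5, a partner of ATF4 and outside the list, was at 352, 379 and 85.2 CPM against 18.5, 22.4 and 36.6 (-3.38 ± 0.57, adjusted p = 0.00576), with 0.183 under the block. With the block 7 of 15 ATF4 targets were called higher with ATRA and 0 with PB-4, and replicates 1 and 2 alone gave 13 and 0. The count was 6 without ATRA replicate 1, ATRA replicate 2, PB-4 replicate 1 or PB-4 replicate 2, 12 without ATRA replicate 3 and 10 without PB-4 replicate 3.

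Some chaperones of the endoplasmic reticulum were also higher with ATRA. Of 19 tested, 4 were higher with ATRA and 0 with PB-4 (median -0.59), with 11 and 0 under the block. This count of 4 became 1 without ATRA replicate 1 or PB-4 replicate 2, and 2 without ATRA replicate 2. Herpud1, which helps to clear misfolded proteins, was at 282, 244 and 193 CPM with ATRA and 95.5, 96.0 and 95.8 with PB-4 (-1.3 ± 0.23, adjusted p = 0.00655), with control at 131, 103 and 119. Hyou1 was at 621, 628 and 591 CPM against 246, 284 and 314 (-1.10 ± 0.22, adjusted p = 0.0113), with an adjusted p of 0.0632 without ATRA replicate 1 and 0.0642 without PB-4 replicate 2. Hspa5, which encodes the master chaperone BiP and carries the stress element shown above, was at 1117, 1223 and 766 CPM with ATRA, 550.4, 461 and 346 with PB-4 and 779.9, 839 and 954 in control (-1.18 ± 0.28, adjusted p = 0.0246). Its PB-4 libraries were the lowest 3 of the 9, and its adjusted p was 0.103 without ATRA replicate 1, 0.0912 without ATRA replicate 2 and 0.0886 without PB-4 replicate 2. For 14 of the 19 genes the control level was nearer to that of ATRA. Among 12 tested cytosolic and mitochondrial heat shock genes 2 were higher with each agent (3 and 6 with the block). Hspb1, a small heat shock protein, was at 15.0, 18.6 and 56.4 CPM with PB-4 against 2.32, 2.96 and 2.38 (3.58 ± 0.55, adjusted p = 0.00395), and Hspd1, the mitochondrial chaperonin, at 832, 898 and 840.1 with ATRA against 368, 329 and 256 (-1.41 ± 0.22, adjusted p = 0.00411). The counts were 1 and 1 without ATRA replicate 1, ATRA replicate 2 or PB-4 replicate 2, 2 and 1 without PB-4 replicate 1 and 1 and 3 without PB-4 replicate 3.

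Some pigment genes were higher with ATRA too. Of 29 tested genes of melanin synthesis and the melanosome 6 were higher with ATRA and 0 with PB-4 (9 and 2 under the block, and 3 without PB-4 replicate 2), with a median of -0.34. Rab38, which carries melanin enzymes to the melanosome, was at 355, 304 and 503 CPM with ATRA, 56.1, 50.2 and 64.0 with PB-4 and 102, 97.2 and 265 in control (-2.73 ± 0.26, adjusted p = 6.04e-04). Mlana was at 143, 167 and 210.4 CPM with ATRA, 48.5, 69.2 and 33.6 with PB-4 and 244, 292 and 529.7 in control (-1.76 ± 0.29, adjusted p = 0.00510), and Pmel, the fibril of the melanosome, at 1182, 1037 and 2413 with ATRA, 535, 579.7 and 461 with PB-4 and 1480.0, 1672 and 2634 in control (-1.52 ± 0.32, adjusted p = 0.0165). In both the group mean was highest in control, and Pmel missed the threshold without PB-4 replicate 1 (0.0663) or PB-4 replicate 2 (0.0694). The enzymes themselves were not called. Tyr, tyrosinase, was at 0.523, 1.3 and 5.11 CPM with ATRA and 4.01, 2.41 and 8.56 with PB-4 (1.23 ± 0.80, adjusted p = 0.372, and 0.00941 with the block), Dct differed by 0.35 ± 0.29 and Tyrp1 by -0.31 ± 0.34. Mitf, the regulator of the lineage, was at 197, 167 and 264 CPM with ATRA and 670.4, 438 and 199.9 with PB-4 (1.08 ± 0.39, adjusted p = 0.11), and passed without PB-4 replicate 3 (0.0166). Sox10 differed by -0.16 ± 0.31. Of 16 tested melanocyte and neural crest transcription factors 3 were higher with PB-4 and 0 with ATRA (8 and 0 with the block), and 1 without ATRA replicate 1, ATRA replicate 2, PB-4 replicate 1 or PB-4 replicate 2 and 5 without PB-4 replicate 3. Tfap2a was at 92.5, 91.9 and 75.9 CPM with PB-4 against 35.5, 39.7 and 37.7 (1.23 ± 0.20, adjusted p = 0.00513), and control, at 109, 107 and 95.7, lay with PB-4.

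**Figure D4:**
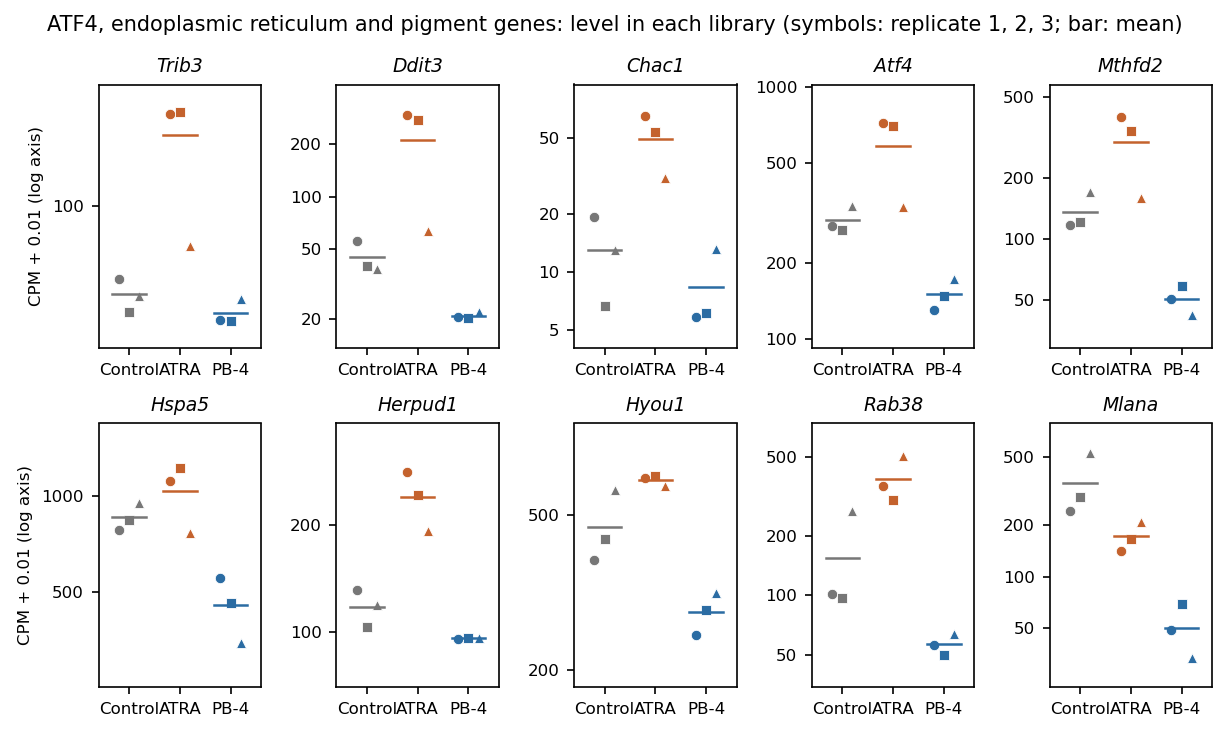
CPM plus 0.01 on a log axis for 5 ATF4 response genes, 3 endoplasmic reticulum genes and 2 pigment genes in each of the 9 total RNA libraries, with control in grey, ATRA in orange and PB-4 in blue, 1 symbol per replicate and a bar at the group mean. The ATRA libraries are above the PB-4 libraries in all 10, ATRA replicate 3 (triangle) is well below ATRA replicates 1 and 2 in Trib3 and Ddit3, and Mlana is highest in control.

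Cell cycle genes gave few calls between the agents. Of 67 tested genes of G2/M and mitosis none was called by edgeR (0 and 2 at an unadjusted p under 0.05 towards PB-4 and ATRA), with a median of -0.18 and members between -0.64 and 0.51. DESeq2 called 0 and limma with sample weights called 8 higher with PB-4 and 1 with ATRA. With the block 1 was higher with PB-4 and 4 with ATRA, and in replicates 1 and 2 alone 14 and 1. Of 46 tested genes of DNA replication edgeR called none (1 and 1 unadjusted), with a median of -0.18, DESeq2 1 and 0, limma 8 and 2, the block 3 and 3, and replicates 1 and 2 alone 13 and 2. The median mitotic gene in ATRA replicate 3 was 0.80 (log2) above the mean of ATRA replicates 1 and 2, and the median replication gene 1.34 above. In PB-4 replicate 3 the same medians were -0.29 and 0.17.

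Proliferation genes had overlapping levels with both agents. Mki67, the marker of cycling cells, was at 152, 189 and 279.9 CPM with ATRA, 252, 239 and 197 with PB-4 and 787, 770.1 and 457 in control, and the agents differed by 0.18 ± 0.25, adjusted p = 0.710. Cdk1, the kinase that drives mitosis, differed by 0.03 ± 0.39, adjusted p = 0.976 and Ccnb1, its cyclin, by -0.09 ± 0.29, adjusted p = 0.880. Prc1, which bundles the spindle midzone, was at 62.9, 73.5 and 82.1 CPM with ATRA and 73.5, 87.8 and 48.0 with PB-4 (-0.04 ± 0.25, adjusted p = 0.942), and Nuf2, of the kinetochore, at 25.6, 29.7 and 32.6 with ATRA and 39.3, 40.5 and 20.1 with PB-4 (0.20 ± 0.29, adjusted p = 0.710). In replicates 1 and 2 alone, Mki67 (adjusted p = 0.00831) and Nuf2 (0.0180) were called higher with PB-4, as they were by limma (0.0364 and 0.0377). Cdk2 differed by -0.57 ± 0.30, Ccnd1 by -0.34 ± 0.35 and Cdkn1b, the p27 inhibitor, by -0.22 ± 0.31, none past the threshold. Among 15 tested G1 cyclins, kinases and inhibitors and Myc, only Myc was called, at 39.7, 40.3 and 49.0 CPM with ATRA against 16.9, 13.8 and 20.7 with PB-4 and 34.8, 36.1 and 50.2 in control (-1.3 ± 0.25, adjusted p = 0.0103, and 0.0595 without PB-4 replicate 2). With the block 5 were higher with PB-4 and 2 with ATRA. Of 20 tested p53 targets 2 were higher with PB-4 and 0 with ATRA (6 and 2 with the block). The count of 2 was near the share of all genes higher with PB-4 (10.3%). Btg2, an antiproliferative gene, was at 49.5, 45.1 and 77.0 CPM against 11.3, 15.0 and 16.8 (2.03 ± 0.30, adjusted p = 0.00320).

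Among other lists, 24 cholesterol genes gave 1 and 0 calls (3 and 1 with the block, 4 and 0 without ATRA replicate 3 and 2 and 0 without PB-4 replicate 3). The 28 tested genes of hypoxia and glycolysis gave 2 and 1 (4 and 10 with the block, 2 and 2 without ATRA replicate 3 and 2 and 5 without PB-4 replicate 3). Gpi1, a glycolytic isomerase, was at 1406, 1215 and 1764 CPM with ATRA, 436, 535 and 604 with PB-4 and 707, 669 and 832 in control (-1.44 ± 0.25, adjusted p = 0.00599), and Eno2, the neuronal enolase, at 41.6, 41.4 and 34.4 with PB-4 against 11.3, 12.8 and 5.19 (2.00 ± 0.35, adjusted p = 0.00708). Of 71 cytosolic ribosomal protein genes 3 were higher with ATRA and 0 with PB-4, but 49 and 0 under the block and 61 and 0 in replicates 1 and 2, with a median of -0.61. The count of 3 was 0 without ATRA replicate 1, ATRA replicate 2 or PB-4 replicate 2, 1 without PB-4 replicate 1, 6 without ATRA replicate 3 and 31 without PB-4 replicate 3. Processed copies of these genes share reads with them, so single ribosomal genes are uncertain. None of 39 replication-dependent histone genes was called by edgeR, DESeq2 or at an unadjusted p under 0.05, limma called 1 higher with PB-4 and the block 6 higher with ATRA. Of 13 mitochondrially encoded mRNAs edgeR and DESeq2 called none (1 and 0 unadjusted), limma 4 and 0 and the block 1 and 0. Of 4 nuclear lncRNAs edgeR, DESeq2 and limma called none, and the block 2 higher with PB-4.

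**Figure D5:**
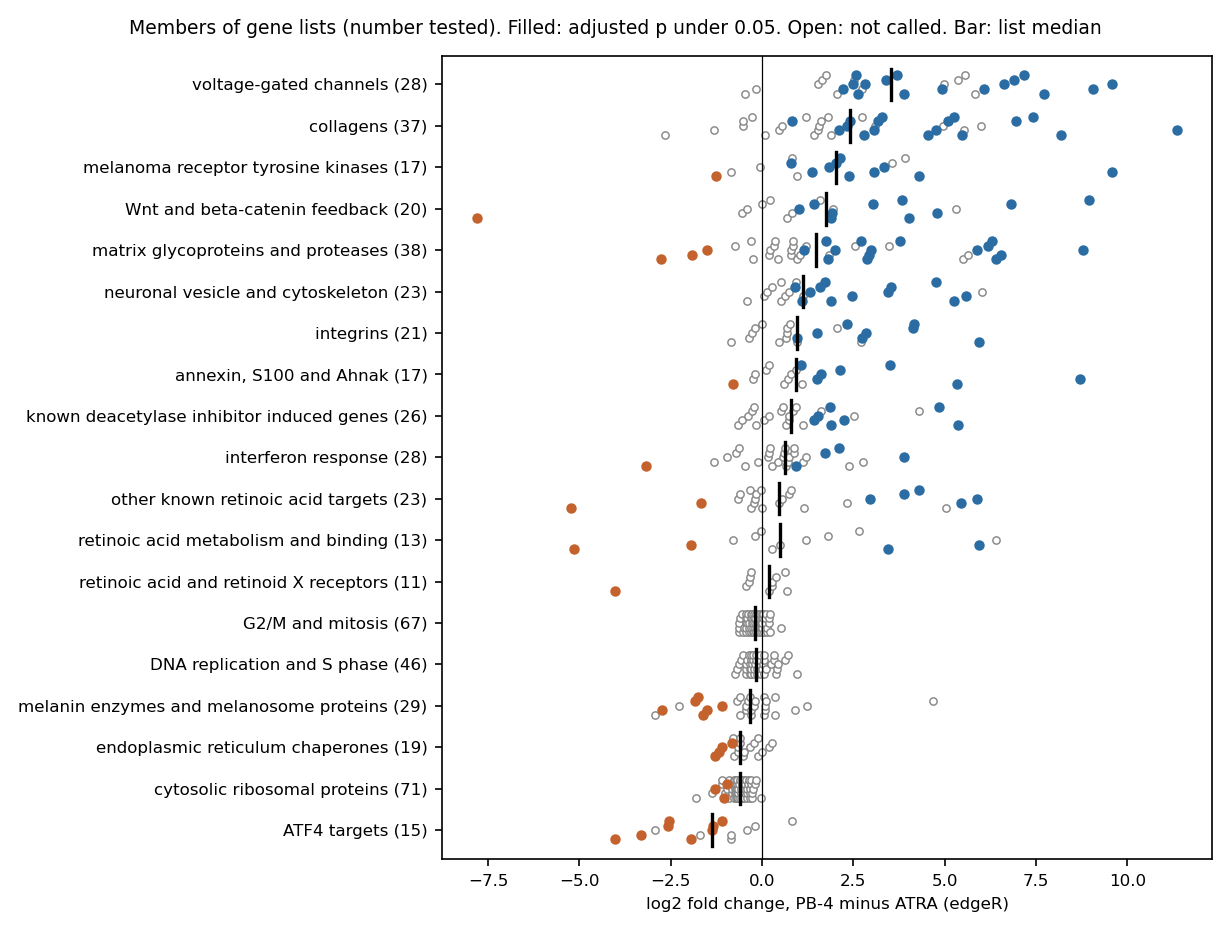
edgeR log2 fold changes (PB-4 minus ATRA) of the tested members of 19 gene lists, 1 dot per gene, with blue for genes called higher with PB-4, orange for genes called higher with ATRA, open circles for genes not called and a black bar at the list median. Channels (median 3.54) and collagens (2.42) lie towards PB-4, ATF4 targets (-1.37) towards ATRA and the mitotic genes (-0.18) around 0, and values of genes at 0 in a group depend on the prior count of the fit.

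Of 2614 lncRNAs tested, 122 were higher with PB-4 (4.67%) and 21 with ATRA (0.803%), against 10.3% and 1.94% of all genes. At least 2-fold, they were 121 and 21. With the block, 229 and 77 differed by at least 2-fold. The first count was 44 without ATRA replicate 1, 53 without ATRA replicate 2, 59 without PB-4 replicate 1 and 47 without PB-4 replicate 2, and the second 7, 8, 10 and 6, with 32 without PB-4 replicate 3. Pcsk2os1, by its name an antisense transcript of Pcsk2, was at 6.26, 4.48 and 4.87 CPM with PB-4 and 0.131, 0.138 and 0 with ATRA (5.54 ± 0.63, adjusted p = 0.00102). Because no source used here states the strand used in counting, its reads cannot be told apart from those of Pcsk2. 9630028I04Rik was at 3.85, 2.56 and 1.84 CPM with PB-4 against 0.0327, 0.0553 and 0.0851 (5.61 ± 0.65, adjusted p = 0.00102), and Gm39463 at 7.95, 7.61 and 3.75 against 0.163, 0.194 and 0 (5.46 ± 0.67, adjusted p = 0.00145). Gm36418 was at 3.05, 2.17 and 4.87 CPM with PB-4, 0.131, 0.0553 and 0.170 with ATRA and 2.52, 1.55 and 6.70 in control, so that ATRA alone stood low (4.93 ± 0.64, adjusted p = 0.00186). Towards ATRA, Gm10825 was at 16.4, 16.6 and 18.7 CPM against 5.58, 3.63 and 3.56 (-1.99 ± 0.31, adjusted p = 0.00366) and Gm11958 at 3.33, 3.57 and 2.89 against 0.562, 0.207 and 0.329 (-3.15 ± 0.52, adjusted p = 0.00531). A430108G06Rik was at 2.45, 1.85 and 2.13 CPM against 0, 0.155 and 0.0659 (-4.61 ± 0.78, adjusted p = 0.00605) and 5730596B20Rik at 1.31, 1.27 and 0.766 against 0, 0.0518 and 0 (-5.31 ± 0.91, adjusted p = 0.00626). Pcsk2os1, 9630028I04Rik and Gm36418 passed the filter on low counts only through PB-4, and A430108G06Rik and 5730596B20Rik only through ATRA. The lncRNAs that the study had picked for moving alike under both agents gave no call among 11 tested (0 and 1 at an unadjusted p under 0.05, 0 and 1 by DESeq2, 1 and 1 by limma), and their choice on these samples makes that no independent evidence. Their median level was 0.527 CPM with ATRA and 0.778 with PB-4, and their log2 fold changes ran from -2.72 to 2.79. At such low levels the lack of a call does not show that the agents were alike.

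Markers of other cell types moved with PB-4, and their part in the results was not tested. The 7 tested fibroblast markers (9 listed) gave 5 and 0 calls, with a summed level of 423 to 1471 CPM in the PB-4 libraries, 44.7 to 124 with ATRA and 66.7 to 104 in control. With PB-4, Col1a1 made up most of this sum. Col3a1 was at 6.79, 7.30 and 22.9 CPM with PB-4 against 0.425, 0.276 and 0.255 (5.25 ± 0.66, adjusted p = 0.00151), whereas Lum, a defining fibroblast gene, was at 0.361, 0.440 and 0.790 with PB-4 and at 0 in the other 6 libraries. The 6 tested immune markers (9 listed) gave 3 and 0 calls, at 35.6 to 44.4 CPM summed with PB-4, 5.03 to 7.32 with ATRA and 11.9 to 17.2 in control. Without ATRA replicate 1 or PB-4 replicate 2 the count was 1. Lyz2, lysozyme, was at 23.9, 25.5 and 20.8 CPM against 1.93, 2.54 and 1.02 (3.64 ± 0.38, adjusted p = 8.1e-04), but Ptprc, the common leukocyte antigen, was at only 0.883, 1.04 and 0.0659 CPM with PB-4 and at 0 with ATRA. Over the 3 ATRA libraries 4 of 9 fibroblast, 5 of 9 immune, 4 of 7 endothelial and 6 of 8 keratinocyte markers were at 0, and over the 3 PB-4 libraries 1, 1, 2 and 3. Of endothelial markers 2 of 7 were tested and Vwf was called, at 6.46, 6.21 and 11.1 CPM against 0.196, 0.387 and 0.170 (4.89 ± 0.54, adjusted p = 8.93e-04), with the list summing to 6.83 to 12.3 CPM with PB-4 and 0.341 to 0.653 with ATRA, while Pecam1 was at 0.0803, 0.673 and 0.856 with PB-4 and 0.457, 0.138 and 0.0851 with ATRA. Of 8 keratinocyte markers, which summed to 0.856 to 4.18 CPM with PB-4 and 0 to 0.138 with ATRA, only Trp63 was tested, at 4.18, 1.27 and 0.658 CPM against 0, 0.111 and 0 (5.28 ± 1.11, adjusted p = 0.0157, and 0.0585 without ATRA replicate 1 and 0.0569 without PB-4 replicate 1). Of 11 tested keratin and junction genes (29 listed), 3 were higher with PB-4, but 9 of the 11 passed the filter only through PB-4. The count was 1 without ATRA replicate 1 or PB-4 replicate 3. The melanocyte genes Tyrp1, at 2756, 3154 and 1518 CPM with PB-4 and 3215, 3979 and 2074 with ATRA, and Dct, at 4285, 3552 and 3941 with PB-4 and 2776, 2208 and 4502 with ATRA, were abundant in every library. Of the other melanocyte markers, described above, Mlana and Pmel were called higher with ATRA, Tyr was low and not called, and Mitf and Sox10 were not called.

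The remaining genes with the largest differences towards ATRA included Kcnj13, Snrnp40, Tnfrsf1b, Cited1 and Plekhb1. Kcnj13, a potassium channel, was at 8.66, 3.43 and 9.79 CPM against 0.402, 0 and 0 (-5.68 ± 1.08, adjusted p = 0.00991), and Plekhb1 at 5.19, 4.75 and 11.9 against 0.602, 0.337 and 1.12 (-3.41 ± 0.60, adjusted p = 0.00710). Cited1, a coactivator of pigment cells, was at 33.2, 34.8 and 319 CPM against 6.54, 8.26 and 17.9, with ATRA replicate 3 far above the others (-3.49 ± 0.90, adjusted p = 0.0354, and 0.118 without PB-4 replicate 1 and 0.127 without PB-4 replicate 2). Snrnp40, a splicing factor, was at 7.19, 0.0553 and 9.45 CPM with ATRA and 0.161, 0.155 and 0.198 with PB-4. Its ATRA libraries straddled the PB-4 level, and its call (-4.96 ± 1.35, adjusted p = 0.0446, and 0.128 with the block) was lost without any library but ATRA replicate 2 (adjusted p from 0.0849 to 0.147). Tnfrsf1b, a tumor necrosis factor receptor, was at 19.8, 20.8 and 3.40 CPM against 0.321, 2.15 and 0.658 (-3.76 ± 0.84, adjusted p = 0.0203), with an adjusted p of 0.0653 without ATRA replicate 1, 0.0566 without PB-4 replicate 1 and 0.0511 without PB-4 replicate 3.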

How the data were processed

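Total RNA of B16 cultures was sequenced on an Illumina platform in 3 libraries for each of control, ATRA and PB-4. The authors deposited raw read counts per gene. HISAT2 2.0.4 and the builds GRCm38 and mm10 stand in the submitters' processing notes, while no source used here gives the counting program, annotation or strand setting. The deposited table of small RNA counts was not used. The 27 rows with dates for names held 0.214% to 0.260% of the counts of a library.

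PB-4 was compared with ATRA by edgeR 4.0.16 (quasi-likelihood test with robust dispersion, TMM factors, R 4.3.3) on the 6 libraries, over genes with at least 10 counts in sum, with Benjamini-Hochberg adjustment at 0.05. CPM values use TMM factors of the 9 libraries. Totals ran from 12632669 to 36176443 counts, so that low genes are less precise in the shallowest libraries. Deviations of same-numbered ATRA and PB-4 libraries from their group means correlated over 13276 genes (0.427, 0.493 and 0.647). A fit with the number as a block was made, although these correlations do not show that the numbers are pairs. Nothing states what a number marks, and libraries 1 and 2 of different groups also correlated (0.358 and 0.545). Alternatives were DESeq2 1.42.0, limma 3.58.1 (voom with sample weights), other scalings and filters, all 9 libraries, replicates 1 and 2 alone and each library left out. The procedure was also run on simulated counts with known changes. These held no difference between replicate numbers, so they cannot show how the fits behave with replicate 3 apart.

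Named are the 12 genes per direction with the largest fitted fold among called genes of at least 5 CPM, up to 4 called members per list and direction by adjusted p, a set of genes fixed by name and up to 4 lncRNAs per direction. Slc7a11, Lum, Pecam1, Malat1, Rara and Rarg fall outside this rule and were chosen after their values were seen. Of the 172 genes so named, those not described are counted with their lists, and a few are not reported here. The comparison, the 41 lists and the genes were chosen with earlier results of these data known. Lists overlap. Promoters (250 bases before to 50 after the start) came from RefSeq, GRCm38.p6.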

Additional observations from a re-analysis of the deposited data

How the results depend on the processing

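The 2384 calls were met in no alternative by a call in the opposite direction, and from 1179 (without ATRA replicate 1) to 2382 (limma with sample weights) were called again. Of 151 named genes called, 96 kept their call under every alternative run. Counts of genes higher with PB-4 and with ATRA were 4881 and 3340 by limma, 3653 and 2168 with the replicate block, 3984 and 3147 in replicates 1 and 2, 2678 and 795 by DESeq2, 2017 and 573 in a fit of all 9 libraries, and 1096 to 1988 and 93 to 773 with 1 library left out. At least 2-fold, they were 3612 and 1071 by limma, 441 higher with ATRA under the block, 716 in replicates 1 and 2, and 1096 to 1836 and 93 to 485 with 1 library left out. LncRNA counts of at least 2-fold were 525 and 300 by limma, 229 and 77 under the block, 239 and 128 in replicates 1 and 2, 49 higher with ATRA by DESeq2, and 44 to 107 and 6 to 32 with 1 library left out. Scaling by library totals moved the all-gene median (log2) from 0.04 to 0.15. Over 41 lists, 950 counts under an alternative stayed within 1.5 times and 280 did not. The cause of these shifts was not tested. Besides the results given with their blocked values, the block changed the call of no gene described with its statistics.

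Genes that changed sign were not called. With 1 library left out, Cyp26a1 ranged over -1.34 to 0.70 (log2), Sox10 over -0.40 to 0.18, Ccnd1 over -0.671 to 0.094, Cdk1 over -0.29 to 0.61, Ccnb1 over -0.30 to 0.16, Prc1 over -0.27 to 0.12 and Hdac2 over -0.222 to 0.215. Cdk1 was -0.026 with no filter, -0.0026 with DESeq2's size factors in edgeR, -0.0036 by DESeq2 and -0.020 with all 9 libraries. Ccnb1 was 0.023 and Prc1 0.073 with library totals, 0.33 and 0.26 by limma, and 0.31 and 0.20 in replicates 1 and 2. Hdac2 was -0.012 with no filter, -0.028 by limma and -0.011 under the block.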

Other observations

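The lists in this paragraph were drawn up after the values had been seen, so their counts are descriptions. All 20 cytosolic aminoacyl-tRNA synthetase genes, which load amino acids on tRNAs and many of which ATF4 is known to control, were tested. Of these 10 were higher with ATRA and 0 with PB-4 (18 and 0 under the block, and 7 to 12 with 1 library left out), with a median log2 fold change of -1.10. Aars was at 492, 455 and 323 CPM with ATRA, 97.4, 125 and 122 with PB-4 and 165, 177 and 269 in control (-1.86 ± 0.26, adjusted p = 0.00236), and Wars was at 463, 458 and 246 CPM against 95.2, 95.5 and 124 (-1.87 ± 0.31, adjusted p = 0.00537). Of 18 tested targets of NRF2, the factor of the antioxidant response, 6 were higher with ATRA and 0 with PB-4 (9 and 0 under the block, and 4 to 8 with 1 library left out). Txnrd1, thioredoxin reductase, was at 1209, 1726 and 1118 CPM against 379, 447 and 386 (-1.72 ± 0.26, adjusted p = 0.00336), with control at 515, 688 and 774. Fth1, the ferritin heavy chain, was at 2312, 2085 and 1294 CPM against 489, 595 and 523 (-1.81 ± 0.28, adjusted p = 0.00424).

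Among abundant genes higher with PB-4 were Peg10, an imprinted gene of retrotransposon origin, at 3459, 2925 and 3272 CPM against 564, 620.4 and 362 with ATRA and 1516, 1480.0 and 911 in control (2.66 ± 0.29, adjusted p = 8.62e-04), and Vim, the intermediate filament of mesenchymal cells, at 1315, 1505 and 2266 CPM against 430.2, 418 and 706 and 1625, 1772 and 2986 in control (1.75 ± 0.31, adjusted p = 0.00763). In Vim it was ATRA that stood away from control. Of 6 tested caveola genes 4 were higher with PB-4 and 1, Pacsin2, with ATRA (5 and 1 with the block). Cav1, the coat protein, was at 5.50, 5 and 0.395 CPM with PB-4 and 0.0327, 0.194 and 0 with ATRA (5.21 ± 1.11, adjusted p = 0.0167). Cav1 passed the filter on low counts only through PB-4, and its level in PB-4 replicate 3 was far below the other PB-4 libraries. These genes were also picked after their values were seen.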
